A study of Canis lupus familiaris with 15 samples.

Results

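RRM2 (ENSCAFG00000003409), CCNA2 (ENSCAFG00000004133) and HJURP (ENSCAFG00000011899) are 3 of the 23630 genes whose messenger RNA was counted by RNA-Seq in canine corpora lutea (CL). They were picked as proliferation genes and selected on values of these same libraries. RRM2 was chosen by its listing as a differentially expressed gene (DEG) for luteal regression over luteolysis, for luteolysis over antigestagen and for mid-gestation over luteolysis. HJURP was chosen by its listing for mid-gestation over antigestagen and luteolysis over antigestagen. CCNA2 was chosen by a listing for mid-gestation over antigestagen that rests on the unadjusted p-value alone and is not one of a DEG. The paper also measured CCNA2 by real-time PCR and reported it as higher at mid-gestation than after antigestagen. In these 4 contrasts the values of the 3 genes are therefore a description without a test. Luteal regression over mid-gestation and luteal regression over antigestagen were not used for choosing, but they share dogs with the contrasts that were.

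The CL came from 15 healthy cross-breed bitches between 2 and 8 years of age, with 1 library per dog and no dog in more than 1 group. The mid-gestation dogs (n = 5) were pregnant and sampled at days 35 to 40. The antigestagen dogs (n = 5) were pregnant, at days 40 to 45, and had received aglepristone, a blocker of the progesterone (P4) receptor, in 2 applications of 10 mg per kg given 24 h apart, with removal of the CL 24 h after the last application. The luteolysis dogs (n = 3) were near term, with P4 followed every 6 h from day 58 of pregnancy until 3 measurements in a row lay under a limit of 2 to 3 ng/ml. The luteal regression dogs (n = 2) were non-pregnant and at day 65 after ovulation. Day of pregnancy and treatment differ together between mid-gestation and antigestagen and cannot be told apart. Total counts per dog were between 8558743 in antigestagen dog 1 and 26284315 in mid-gestation dog 5, with a median of 18313707. The title and the condition of mid-gestation dog 1 place it at mid-gestation, whereas its description gives the number that the titles use for antigestagen. Dogs are numbered only to name them.

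Cells copy their DNA in S phase and divide in mitosis, and the transcripts of many genes for these steps are abundant only in cycling cells. RRM2 is the small subunit of ribonucleotide reductase, the enzyme that makes the deoxynucleotides for DNA synthesis. CCNA2 is cyclin A2, which binds CDK2 and CDK1 and acts from S phase to the entry into mitosis. HJURP is the chaperone that brings the histone variant CENPA to centromeres, where chromosomes attach to the spindle. The CL is a gland that secretes P4, and it holds vascular, stromal and immune cells beside the luteal cells.

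The luteolysis libraries differed among themselves in more than the 3 genes. TAGLN, the only smooth muscle marker of 6 with an identifier, stood at 60.3, 1006 and 988 CPM (reads of a gene relative to the library's total, normalised by TMM) in luteolysis dogs 1, 2 and 3. The summed level of 6 of 15 T and NK cell markers was 8.33, 211 and 114 CPM in the same dogs. GZMB, a protease of cytotoxic granules, made up most of this sum in dogs 2 and 3 with 206 and 110 CPM, but not in dog 1 with 0.676 CPM. The other 5 of these markers summed to 7.66, 5.06 and 4.00 CPM and were thus not higher in dogs 2 and 3. Luteolysis dog 1 stood apart from dogs 2 and 3 in TAGLN, GZMB, the neutrophil sum (2.85, 67.3 and 31.6 CPM) and the endothelial sum (438, 986 and 909 CPM), but not in the stromal sum (2710, 4744 and 2137 CPM) or the macrophage sum (458, 439 and 422 CPM). Levels of the 3 genes in luteolysis are therefore also given by dog.

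RRM2 was far more abundant in 2 of the luteolysis dogs than in any other dog. Luteolysis dogs 1, 2 and 3 had 4.13, 50.9 and 64.7 CPM, from 55, 1287 and 1117 reads. The luteal regression dogs had 3.47 and 4.77 CPM. Mid-gestation dogs 1 to 5 had 3.88, 6.83, 2.59, 6.84 and 4.13 CPM. Luteolysis dog 1 therefore lay within the range of the mid-gestation and luteal regression dogs, whereas dogs 2 and 3 lay above all other dogs, also by their counting intervals. Antigestagen dogs 1 to 5 had 2.45, 3.02, 2.83, 0.828 and 2.52 CPM, which overlapped with mid-gestation dog 3 only. The order of the group means was luteolysis (39.9 ± 31.8 CPM, SD, n = 3), mid-gestation (4.86 ± 1.90, n = 5), luteal regression (4.12 ± 0.919, n = 2) and antigestagen (2.33 ± 0.872, n = 5). Luteolysis and mid-gestation, neighbours in this order, overlapped through luteolysis dog 1, and mid-gestation and luteal regression did not differ beyond their spread.

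CCNA2 was not raised in the 2 luteolysis dogs with high RRM2. Luteolysis dogs 1, 2 and 3 had 7.43, 4.23 and 5.16 CPM, and the luteal regression dogs 4.01 and 6.52 CPM. Mid-gestation dogs 1 to 5 had 3.83, 11.3, 2.84, 7.52 and 5.54 CPM. The antigestagen dogs had 2.67, 3.90, 3.09, 1.83 and 2.32 CPM. All 5 antigestagen values lay below those of every luteolysis and luteal regression dog, and they overlapped with mid-gestation dogs 1 and 3. The highest of them, antigestagen dog 2, and luteal regression dog 1 did not differ beyond counting error (exact Poisson 95% intervals of 3.07 to 4.88 and 3.19 to 4.98 CPM). How many of all genes lie lower in the antigestagen dogs in this way was not counted. The means were 6.20 ± 3.34 CPM at mid-gestation, 5.61 ± 1.65 in luteolysis, 5.26 ± 1.77 in luteal regression and 2.76 ± 0.784 after antigestagen (SD, n = 5, 3, 2 and 5). The first 3 groups in this order did not differ beyond their spread. In the RefSeq gene table of the assembly UU_Cfam_GSD_1.0 the interval of CCNA2 overlaps those of 3 genes, BBS7, EXOSC9 and LOC111091122, while RRM2 and HJURP overlap none. The kit used for the libraries (TruSeq RNA Sample Prep Kit v2) does not keep the strand, so that reads of CCNA2 and of an overlapping gene on the opposite strand cannot be told apart where they overlap.

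HJURP, like CCNA2 and unlike RRM2, was not raised in luteolysis dogs 2 and 3. Luteolysis dogs 1, 2 and 3 had 6.16, 2.93 and 4.52 CPM, the luteal regression dogs 2.84 and 4.57 CPM. Mid-gestation dogs 1 to 5 had 2.36, 8.68, 3.15, 6.84 and 4.78 CPM. The antigestagen dogs had 1.22, 2.10, 2.14, 0.237 and 1.62 CPM, all below every dog of the other groups. HJURP was chosen on contrasts with these dogs, and the share of all genes with such a gap was not counted. The gap between antigestagen dog 3 and mid-gestation dog 1 was within counting error (1.58 to 2.82 and 1.72 to 3.16 CPM). The means were 5.16 ± 2.61 CPM at mid-gestation, 4.53 ± 1.62 in luteolysis, 3.70 ± 1.22 in luteal regression and 1.46 ± 0.782 after antigestagen, and here too the first 3 groups did not differ beyond their spread. In antigestagen dog 4 only 4 reads of HJURP were counted among 19272885, which gives an exact Poisson 95% interval of 0.0645 to 0.606 CPM (counting error only). The same dog was the lowest of its group for RRM2 (14 reads) and CCNA2 (CPM), and its total count was not low. In whole tissue, fewer cycling cells and less of a transcript per cell cannot be told apart.

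**Figure D1:**
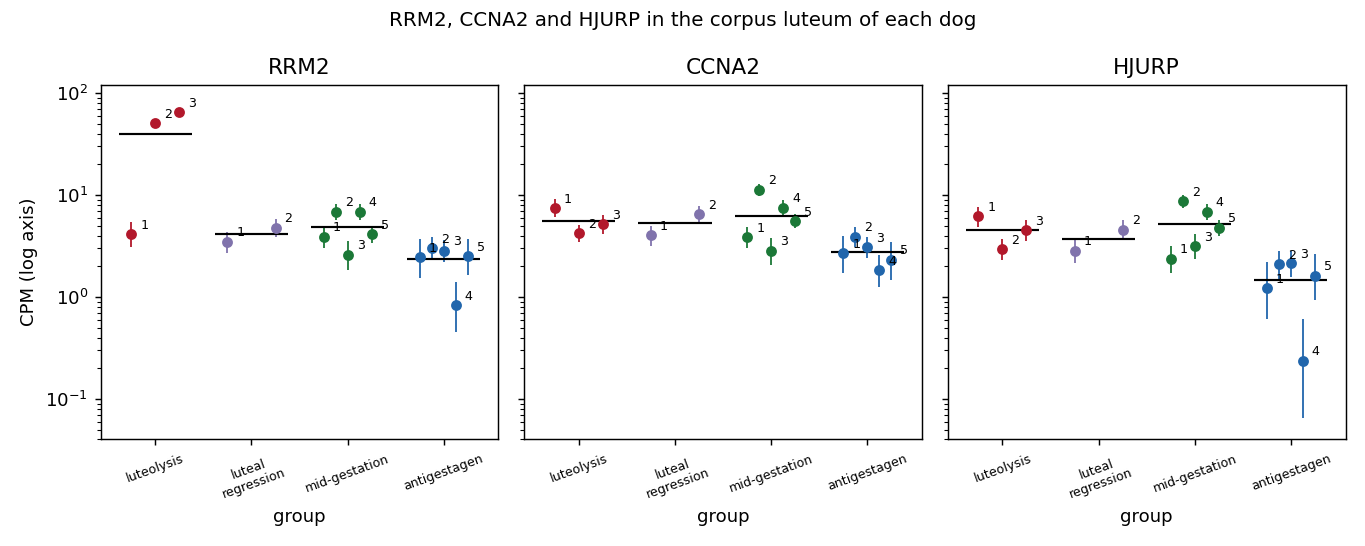
CPM of RRM2, CCNA2 and HJURP in each of the 15 dogs (points, numbered by replicate), with exact Poisson 95% intervals (bars) and group means (black lines), on a log axis. RRM2 stood at 50.9 and 64.7 CPM in luteolysis dogs 2 and 3 and at no more than 6.84 CPM in the other dogs, and HJURP was lowest in all 5 antigestagen dogs.

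Ratios of reads within a library do not depend on scaling between libraries. The ratio of RRM2 reads to CCNA2 reads was 0.556 in luteolysis dog 1, 12.03 in dog 2 and 12.6 in dog 3. In the 12 dogs of the other groups it lay between 0.452 and 1.09, with a median of 0.888. The excess of RRM2 in luteolysis dogs 2 and 3 was thus not shared by CCNA2. The ratio of HJURP reads to CCNA2 reads lay between 0.692 and 0.876 in luteolysis and between 0.616 and 1.11 at mid-gestation, and it was 0.707 and 0.701 in luteal regression. After antigestagen it was between 0.458 and 0.696 in 4 dogs and 0.129 in dog 4, where few reads of HJURP were counted. A ratio of reads also reflects the lengths of the transcripts, so that it compares dogs and not the levels of the genes.

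**Figure D2:**
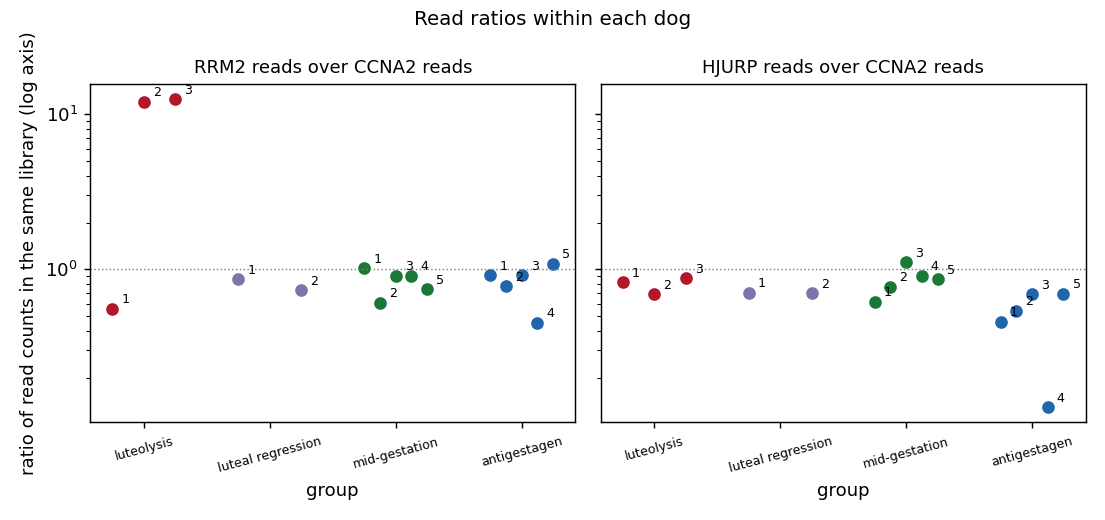
Reads of RRM2 (left) and of HJURP (right) over reads of CCNA2 in the same library, 1 point per dog numbered by replicate, on a log axis with a dotted line at equal reads. RRM2 over CCNA2 was 12.03 and 12.6 in luteolysis dogs 2 and 3 and at most 1.09 in the others, while HJURP over CCNA2 showed no such gap.

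The first question was how natural luteolysis differs from slow luteal regression and from mid-gestation. Set against luteolysis, luteal regression had a log2 ratio (± SE, edgeR) of -3.28 ± 0.85 for RRM2, -0.09 ± 0.51 for CCNA2 and -0.29 ± 0.67 for HJURP. In mid-gestation over luteolysis it was -3.04 ± 0.59 for RRM2, 0.15 ± 0.41 for CCNA2 and 0.19 ± 0.53 for HJURP. DEG were called by edgeR where p was under 0.01 and the Benjamini-Hochberg adjusted p under 0.1. By this rule 1 of the 3 genes, RRM2, was called lower in either contrast, a call fixed by the choice of the gene and given as a description only. Of all genes tested, 1.52% were called higher and 3.58% called lower in luteal regression over luteolysis, and 2.43% and 5.73% in mid-gestation over luteolysis. Nothing was read from these counts. Without luteolysis dog 1, 2 or 3 the log2 ratio of RRM2 was -3.78, -3.07 and -2.69 in the first contrast and -3.57, -2.83 and -2.48 in the second. RRM2 was not called in either contrast without luteolysis dog 3, nor in the first one without either luteal regression dog or in a fit of the 2 groups alone. The 754 genes called in the first contrast became 1593 without luteolysis dog 1, 5 without luteolysis dog 3, and 0 and 1 without luteal regression dog 1 and dog 2. The 1197 genes called in the second became 2434, 474 and 112 without luteolysis dogs 1, 2 and 3, and 735 and 703 without mid-gestation dogs 3 and 4.

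For natural against induced luteolysis, the log2 ratio in luteolysis over antigestagen was 4.10 ± 0.62 for RRM2, 1.01 ± 0.40 for CCNA2 and 1.61 ± 0.54 for HJURP. RRM2 was the only one of the 3 called by edgeR, beside 3.12% of all genes called higher and 1.62% called lower. DESeq2's Wald test called 2 of the 3, RRM2 and HJURP, and limma-voom called RRM2 alone, beside 10.3% and 19.6% of all genes called by these tools. RRM2 and HJURP were chosen by their listing in this contrast, so that these calls are a description only. All 3 luteolysis dogs lay above all 5 antigestagen dogs for each gene, but the lowest of them by a small margin. The share of all genes separated in this way was not counted, so that nothing is read from this either. The lowest luteolysis and the highest antigestagen values were 4.13 and 3.02 CPM for RRM2, 4.23 and 3.90 CPM for CCNA2 and 2.93 and 2.14 CPM for HJURP, with overlapping counting intervals in each case. Without luteolysis dog 1, 2 or 3 the log2 ratio of RRM2 was 4.63, 3.88 and 3.54, and RRM2 was not called without luteolysis dog 3 or in a fit of the 2 groups alone. The 687 genes called became 2169, 229 and 6 without luteolysis dogs 1, 2 and 3, and 320 and 437 without antigestagen dogs 3 and 5.

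For the withdrawal of P4 signalling at mid-gestation, the log2 ratio in mid-gestation over antigestagen was 1.06 ± 0.54 for RRM2, 1.16 ± 0.36 for CCNA2 and 1.804 ± 0.49 for HJURP. Without mid-gestation dog 1, whose labels disagree, they were 1.13, 1.29 and 1.99. Over all dogs they correspond to levels 2.08, 2.23 and 3.49 times higher at mid-gestation. None of the 3 genes was called by edgeR, and neither was any other gene (0% called higher and 0% called lower), although 980 of the 14399 genes had an unadjusted p-value under 0.05. DESeq2 called 87 genes in this contrast, HJURP among them, and limma-voom called 18 and none of the 3. The groups did not overlap for HJURP and overlapped for RRM2 through mid-gestation dog 3 and for CCNA2 through mid-gestation dogs 1 and 3. HJURP was chosen on this contrast, and the share of all genes without overlap was not counted. Leaving out antigestagen dog 1 gave 8 called genes and leaving out mid-gestation dog 5 gave 6, none of the 3 among them.

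Luteal regression over antigestagen was not used to choose the genes. Both luteal regression dogs lay above all 5 antigestagen dogs for RRM2, CCNA2 and HJURP. The share of all genes separated in this way was not counted, so that nothing is read from the separation. None of the 3 passed the test, and of all 14578 genes 0% were called higher and 0% lower. The log2 ratio of HJURP was 1.32 ± 0.60 (95% interval 0.05 to 2.59), with an adjusted p-value of 0.278 in edgeR's quasi-likelihood test with Benjamini-Hochberg adjustment. For CCNA2 it was 0.92 ± 0.45 and for RRM2 0.82 ± 0.69, with adjusted p-values of 0.305 and 0.536 in the same edgeR test. The higher values in both luteal regression dogs are thus a description only, since the differences did not pass the test. Unadjusted p-values under 0.05 were found for 2496 genes, and DESeq2 called 920 and limma-voom 2408 genes, none of the 3 among them. Without antigestagen dog 1 edgeR called 91 genes, again without the 3.

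Luteal regression over mid-gestation, the other contrast not used for choosing, showed smaller differences. The log2 ratio was -0.24 ± 0.70 for RRM2, -0.24 ± 0.47 for CCNA2 and -0.48 ± 0.62 for HJURP, with adjusted p-values of 0.892, 0.829 and 0.728 in edgeR's quasi-likelihood test. Both luteal regression dogs lay within the range of the 5 mid-gestation dogs for each of the 3 genes. The 95% intervals reached from -1.73 to 1.26 for RRM2, from -1.23 to 0.76 for CCNA2 and from -1.80 to 0.84 for HJURP, so that a level 2 times lower in luteal regression lies within each of them. Of the 14685 genes 0% were called higher and 0% lower by edgeR, with 2073 at an unadjusted p-value under 0.05, and DESeq2 called 332 and limma-voom 2741 genes, again none of the 3. A fit of the 2 groups alone by edgeR called 770 genes (224 higher and 546 lower), also without the 3. The sign for CCNA2 changed without luteal regression dog 1 (0.07) and without mid-gestation dog 2 (0.13).

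Whether the 3 genes varied together among dogs of the same group was a measure not used to choose them. Deviations of log2 CPM (prior count of 2) from the group mean were correlated over 15 dogs for 3 pairs, with 100000 permutations of dogs within groups, two-sided. CCNA2 and HJURP varied together, with Pearson's r = 0.794 (permutation p = 0.00046, Benjamini-Hochberg adjusted 0.00138) and Spearman's rho = 0.889 (p = 0.00051, adjusted 0.00153). Without the 2 dogs farthest from the median of CCNA2, mid-gestation dogs 2 and 3, r was 0.838 (permutation p = 0.00121). Mid-gestation dogs 2 and 4 were high and antigestagen dog 4 was low for both genes.

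RRM2 did not follow them over all 15 dogs. Its r was 0.174 with CCNA2 (permutation p = 0.512, adjusted 0.512) and 0.297 with HJURP (permutation p = 0.211, adjusted 0.316), and rho was 0.357 (p = 0.236, adjusted 0.236) and 0.446 (p = 0.113, adjusted 0.169). The luteolysis dogs set these values, since luteolysis dog 1 was the lowest of its group for RRM2 and the highest for CCNA2 and HJURP. Without luteolysis dog 1, r was 0.829 with CCNA2 (permutation p = 0.00029) and 0.933 with HJURP (permutation p = 0.00138). Without the 2 dogs farthest from the median of RRM2, luteolysis dog 1 and antigestagen dog 4, r was 0.937 with CCNA2 (permutation p = 0.00151) and 0.842 with HJURP (permutation p = 0.0148). Without antigestagen dog 4 alone, r with HJURP was -0.00175 (permutation p = 0.997). The relation of RRM2 with the other genes thus depended on which of these dogs were included.

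**Figure D3:**
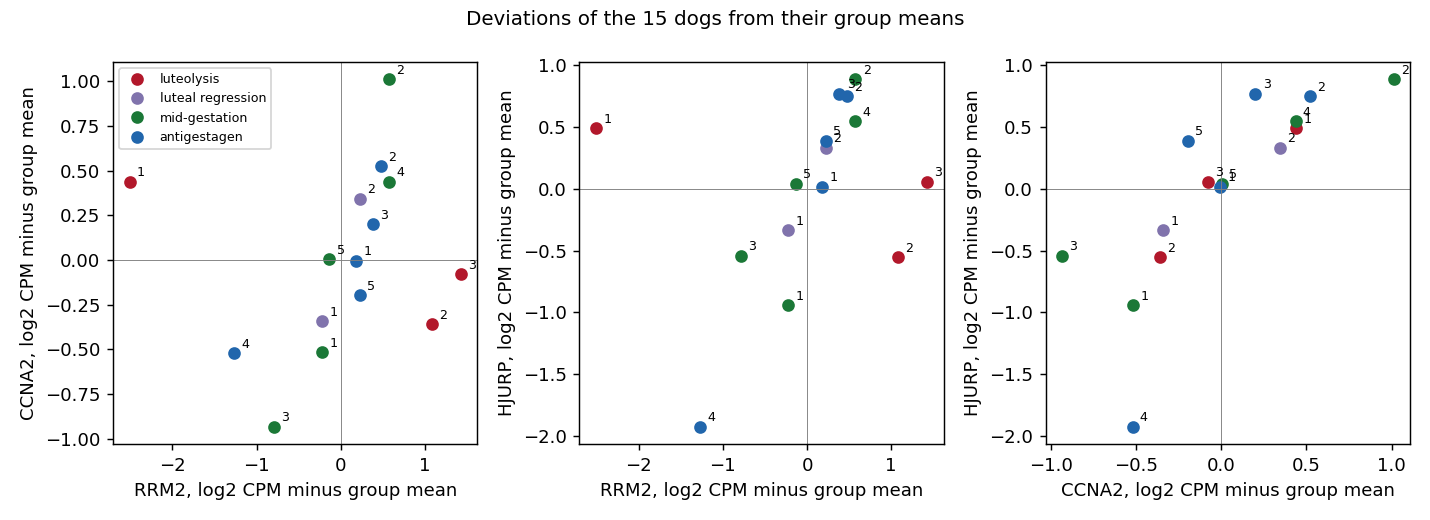
Deviations of log2 CPM from the group mean in 15 dogs for the 3 pairs of genes, with colours for groups and numbers for replicates. CCNA2 and HJURP lie along a line (r = 0.794), while luteolysis dogs 1, 2 and 3 lie off the trend of the other dogs in both panels with RRM2.

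Other cell cycle genes were taken from 7 lists by role. Names were paired with identifiers only through the study's published tables of genes past a threshold, mostly from these same dogs. In this way 48 of 205 genes were found, and their direction is no independent evidence. Of the genes that supply deoxynucleotides with RRM2, 0 of 9 were found. Of the direct partners of the 3 genes and the proliferation markers chosen beside them, only TOP2A, the topoisomerase that untangles DNA before division, had an identifier. Other proliferation genes with an identifier, such as PLK1 and UBE2C, are given with their lists below. TOP2A stood at 18.5, 24.0 and 19.7 CPM in luteolysis dogs 1, 2 and 3, between 17.7 and 59.4 CPM at mid-gestation, at 22.7 and 37.97 CPM in luteal regression and between 2.96 and 21.0 CPM after antigestagen. Like CCNA2 and HJURP, it was not raised in the luteolysis dogs with high RRM2.

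In mid-gestation over antigestagen 42 of the 48 genes had a positive log2 ratio, with a median of 0.88 beside -0.02 over all genes tested, and 0 were called by edgeR. Of the 48 genes 32 had their name through the published table of this same contrast, and only 5 through tables without treated dogs alone. The genes were thus largely selected on this contrast, and nothing is read from the median. Of the 22 genes of mitosis and cytokinesis 21 were positive, among them PLK1 (0.88 ± 0.23), a kinase that drives mitosis, and UBE2C (1.68 ± 0.45), an enzyme that marks mitotic proteins for destruction. All 6 genes of DNA replication were positive, with KIAA0101, a partner of the replication clamp, at 1.64 ± 0.40 and GINS4, a subunit of the replicative helicase, at 0.88 ± 0.21. All 6 centromere and kinetochore genes were positive as well (CENPI 1.28 ± 0.37), whereas 3 of the 4 inhibitors were negative (CDKN1A -1.28 ± 0.69). DESeq2 called 5 of the 48 genes in this contrast and limma-voom 1, beside 0.604% and 0.125% of all genes.

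Between luteal regression and antigestagen 41 of the 48 genes were positive, that is, higher in luteal regression, with a median of 0.80 beside -0.02 over all genes, and 0 were called by edgeR. Only 5 of the 48 had their name through tables without treated dogs alone. The genes were thus largely selected on contrasts with these same antigestagen dogs, and nothing is read from the signs or the median. PLK1 stood at 1.05 ± 0.29, GINS4 at 0.99 ± 0.26 and KNTC1, a kinetochore protein of the spindle checkpoint, at 1.53 ± 0.40, whereas CCND3, cyclin D3, stood at -1.51 ± 0.33. DESeq2 called 8 and limma-voom 17 of the 48 genes, beside 6.31% and 16.5% of all genes. For luteal regression over mid-gestation 33 of the 48 were negative, with a median of -0.13 beside -0.02, and 0 were called by edgeR, 2 by DESeq2 and 6 by limma-voom (0%, 2.26% and 18.7% of all genes). This contrast shares its luteal regression dogs with the one before, and CCND3 was again the cyclin of smallest p-value (-1.56 ± 0.34).

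In luteolysis over antigestagen 43 of the 48 genes were positive, with a median of 0.73 beside 0.02 over all genes, and 6 were called higher and 1 lower, beside 3.12% and 1.62% of all genes. The genes were largely selected on contrasts with the same antigestagen dogs, this one included, so that nothing is read from these values. CDC20, an activator of the mitotic ubiquitin ligase, was higher in luteolysis (log2 ratio 1.23 ± 0.31), and so were ZWILCH of the kinetochore (0.85 ± 0.25), CDK4 (0.70 ± 0.16), cyclin D2 (CCND2, 1.14 ± 0.31), the transcription factor E2F5 (0.88 ± 0.24) and CKAP2L (2.97 ± 0.79), which binds spindle microtubules. TOB1, an inhibitor of proliferation, was lower (-1.11 ± 0.29). The count of 7 was 2 without luteolysis dog 2, 0 without luteolysis dog 3 and 3 without antigestagen dog 1, 3, 4 or 5. It was also 0 in a fit of the 2 groups alone, and it was 15 by DESeq2's Wald test and 15 by limma-voom.

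In mid-gestation over luteolysis 34 of the 48 were positive, with a median of 0.19 beside -0.02, and 2 were called higher (ASPM 1.61 ± 0.43, INCENP 0.56 ± 0.16) and 4 lower. The 4 were CKAP2L (-4.22 ± 0.82), the cyclin-dependent kinase inhibitor p21 (CDKN1A, -3.55 ± 0.79), CCND2 (-1.22 ± 0.31) and the retinoblastoma gene RB1 (-0.74 ± 0.23), and of all genes 2.43% were called higher and 5.73% lower. For luteal regression over luteolysis 26 were positive, with a median of 0.04 beside -0.05, and CIT, a kinase of cytokinesis, was called higher (1.99 ± 0.52), with 16.1, 12.3 and 3.30 CPM in luteolysis dogs 1, 2 and 3 and 42.9 and 40.7 CPM in the luteal regression dogs. CDKN1A (-4.02 ± 1.17), CCND3 (-1.98 ± 0.36) and E2F3 (-0.86 ± 0.19) were called lower, beside 1.52% of all genes called higher and 3.58% lower. The count of 6 in the first contrast was 3 without luteolysis dog 2 and 0 without luteolysis dog 3. In a fit of the 2 groups alone the counts of the first and second contrast were 2 and 0, and by limma-voom 12 and 10. The count of 4 in the second was 7 without luteolysis dog 1 and 0 without luteolysis dog 3 or either luteal regression dog.

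Of the 48 genes 5 were, like RRM2, higher in luteolysis dogs 2 and 3 than in every other dog, namely CKAP2L, CDKN1A, E2F5, CCND2 and RB1. The share of all genes with this pattern was not counted, so that nothing is read from this number. CKAP2L stood at 9.61, 115 and 249 CPM in luteolysis dogs 1, 2 and 3, and CDKN1A, which halts the cycle, at 68.0, 1061 and 1779 CPM. The gap was smaller for E2F5 (33.9, 59.5 and 72.5 CPM), CCND2 (36.9, 89.9 and 58.1 CPM) and RB1 (29.6, 55.0 and 48.9 CPM). CKAP2L and CDKN1A were also higher in antigestagen dog 2 (44.1 and 430 CPM) than in the other antigestagen dogs, whereas RRM2 was 3.02 CPM there and lay close to antigestagen dog 3. Summarised by dog, the median of the 22 genes of mitosis and cytokinesis, as log2 CPM centred over 15 dogs, was 0.33, 0.06 and 0.18 in luteolysis dogs 1, 2 and 3. It was 1.00 and 0.79 in mid-gestation dogs 2 and 4, 0.20 and 0.69 in the luteal regression dogs, and -1.27 in antigestagen dog 4. The dogs in which CCNA2 and HJURP were highest and lowest were thus also those with the highest and lowest levels of these genes.

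**Figure D4:**
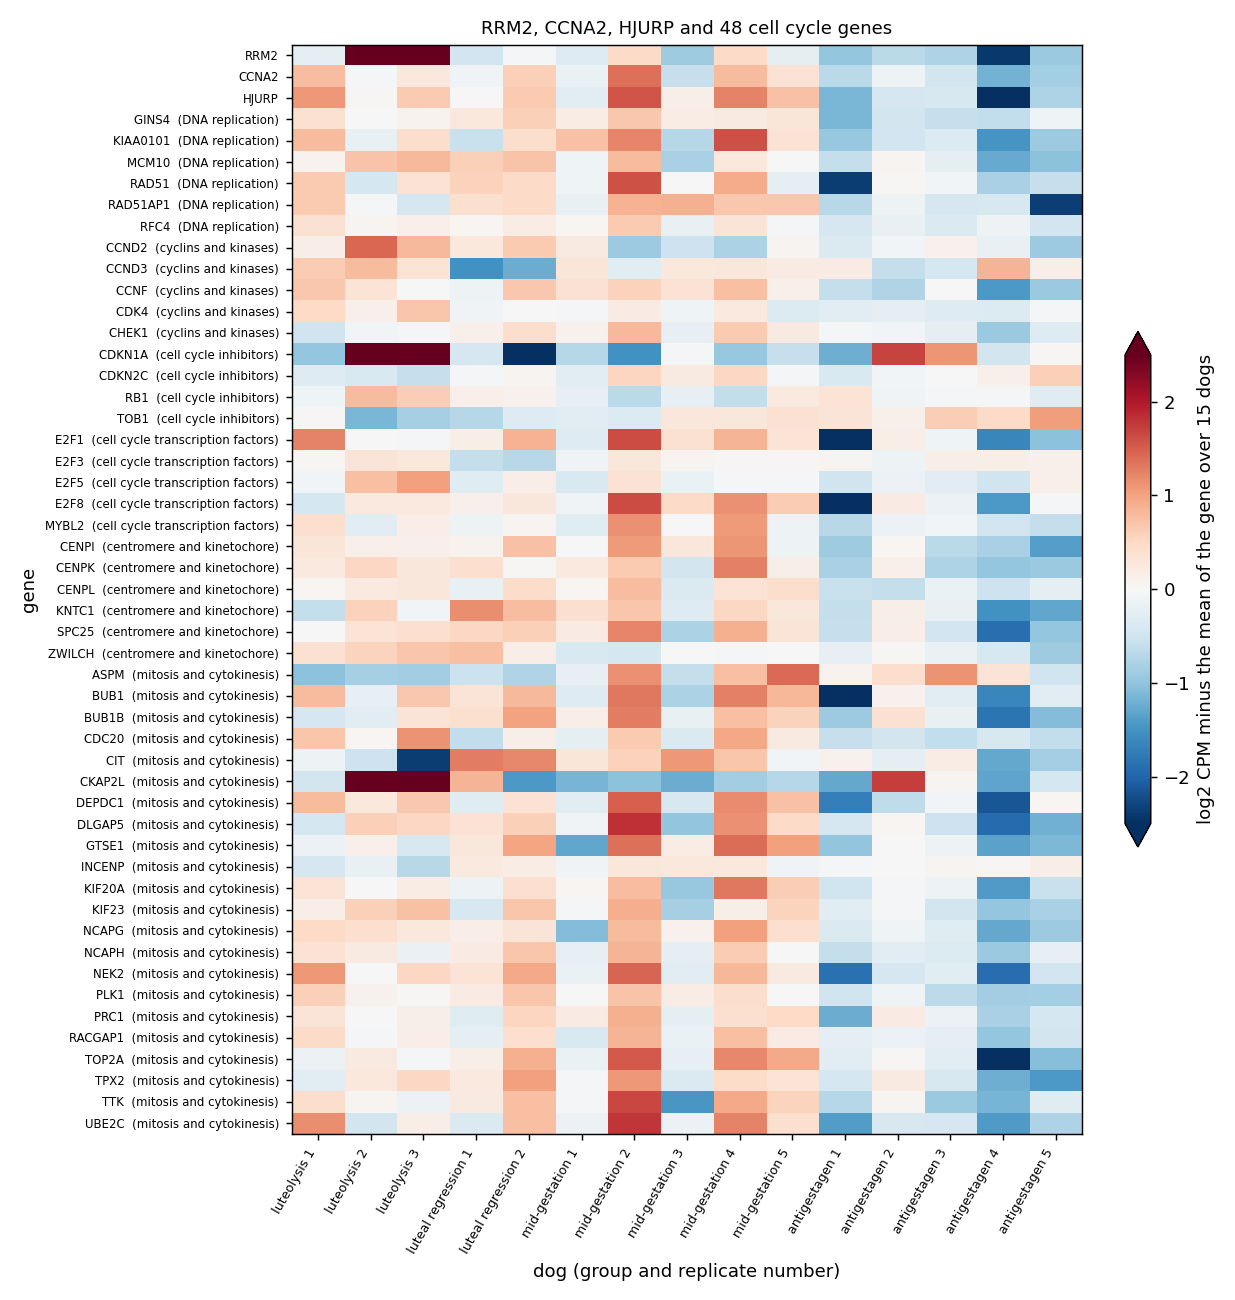
Log2 CPM of RRM2, CCNA2, HJURP and 48 cell cycle genes in 15 dogs, centred on the mean of each gene (red above, blue below), grouped by the role in brackets. RRM2, CDKN1A and CKAP2L are dark red in luteolysis dogs 2 and 3, while most genes of replication, centromere and mitosis are red in mid-gestation dogs 2 and 4 and blue in antigestagen dogs 1, 4 and 5.

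The named genes most like the mean of the 3 genes over 15 dogs were INHBA, a subunit of activin and inhibin A (r = 0.911), BCCIP (0.904), MCM10 (0.869), BRIX1 (0.868), KIF23 (0.865), DEPDC1 (0.863), SPC25 (0.857), DNAJC2 (0.855), LMNB1 (0.854) and TIMM8A (0.848). By deviations from the group means they were CHEK1 (0.943), TOP2A (0.909), BUB1B (0.908), DLGAP5 (0.907), ERCC6L (0.906), SPC25 (0.903), FOXRED2 (0.898), FEZ1 (0.892), MCM10 (0.875) and BCCIP (0.871). MCM10 acts in replication, SPC25 at the kinetochore, and CHEK1 and BUB1B in checkpoints of the cycle. Of the 100 genes most like the mean of the 3, 50 over 15 dogs and 14 by deviations had a name, and 16 and 6 were on the cell cycle lists, which hold named genes only. The lists hold 48 of the 14919 genes compared (0.322%). Of the 100 genes most like each single gene over 15 dogs, 1 for RRM2, 24 for CCNA2 and 21 for HJURP were on the lists. By deviations these counts were 0, 10 and 8. Of the 48 list genes 32 had their name through mid-gestation over antigestagen, a contrast by which CCNA2 and HJURP were chosen and RRM2 was not. The counts of the 3 genes are thus not on an equal footing, and nothing is read from them. All these correlations describe libraries that share 4 group means and were not tested.

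The same measure was taken for each gene, a choice made after the values were seen. Over 15 dogs and among the named genes, RRM2 was most like SDC1 (r = 0.940), DENR (0.933), NXPH3 (0.930), ORC4 (0.929), AMD1 (0.929), TPM1 (0.924), FAM220A (0.922), NOP58 (0.919), RASGEF1A (0.917) and ASPHD1 (0.917). SDC1, a cell surface proteoglycan, stood at 9.68, 105 and 135 CPM in luteolysis dogs 1, 2 and 3, and TPM1, a tropomyosin, at 144, 557 and 607 CPM. These genes were high in the same 2 luteolysis dogs. ORC4 is a subunit of the origin recognition complex, but it was not on the lists. Of the list genes E2F5 was most like RRM2 (r = 0.909).

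Among the named genes CCNA2 was most like RACGAP1 (0.952), UBE2C (0.9497), MTFR2 (0.916), KIAA0101 (0.905), NEK2 (0.903) and TTK (0.898), followed by HJURP (0.897). HJURP was most like DEPDC1 (0.927), NEK2 (0.924), RACGAP1 (0.921) and TOP2A (0.900) among the named genes, followed by CCNA2. Genes without a name stood between or above these for both. RACGAP1 acts in cytokinesis, and NEK2 and TTK are mitotic kinases. RRM2 itself had an r of 0.449 with CCNA2 and 0.519 with HJURP.

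**Figure D5:**
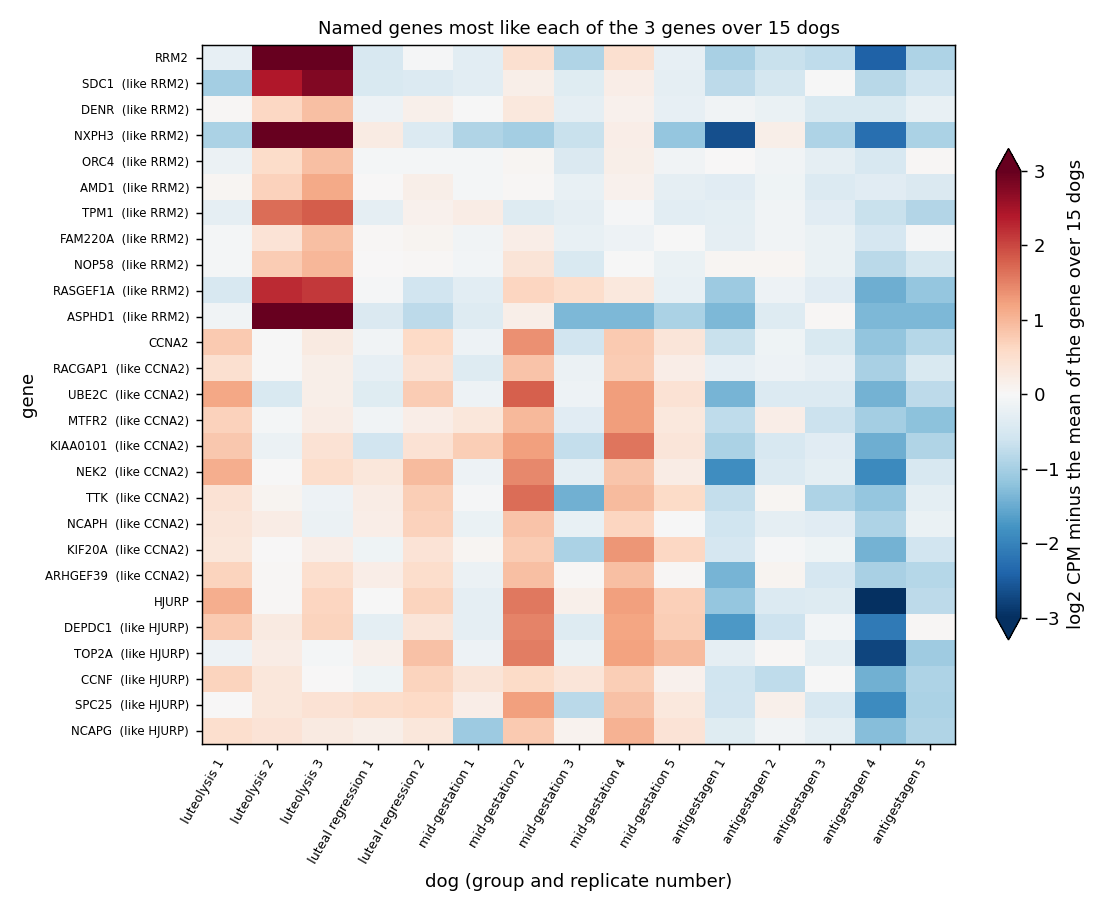
Log2 CPM in 15 dogs, centred on the mean of each gene, of RRM2, CCNA2, HJURP and the named genes with the highest Pearson correlation with each (given in brackets, each gene shown once). Genes like RRM2 are highest in luteolysis dogs 2 and 3, whereas each gene like CCNA2 or HJURP is highest in mid-gestation dog 2 or 4, and most of them are lowest in antigestagen dog 4.

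Markers of the cell types a CL can hold were read as levels beside these results, as far as names allowed (31 of 116). PRLR, the only one of 12 luteal steroidogenic markers found, was present in every dog, which is the only check of the tissue that this list allowed. It stood at 121 to 175 CPM after antigestagen, 67.3 to 145 CPM at mid-gestation, 74.8 to 95.2 CPM in luteolysis and 65.8 and 104 CPM in luteal regression, so that the antigestagen dogs overlapped with mid-gestation only. For smooth muscle, TAGLN was at 47.4 to 447 CPM at mid-gestation, 89.3 to 180 CPM after antigestagen and 116 and 131 CPM in luteal regression, so that luteolysis dogs 2 and 3 with 1006 and 988 CPM were the highest of all. The T and NK cell sum, with GZMB as its most abundant gene by the mean of all dogs, was at most 29.5 CPM outside luteolysis dogs 2 and 3, and without GZMB it lay between 8.62 and 27.0 CPM in the dogs of the other groups. The neutrophil sum (2 of 9 markers, CSF3R and S100A9, with the higher mean for S100A9) was 2.85, 67.3 and 31.6 CPM in luteolysis dogs 1, 2 and 3. It was 35.1, 15.3, 16.3, 18.5 and 29.2 CPM in antigestagen dogs 1 to 5, 4.41, 8.73, 7.07, 30.0 and 7.87 CPM in mid-gestation dogs 1 to 5, and 4.40 and 0.718 CPM in luteal regression. In luteolysis TAGLN, GZMB, the neutrophil sum and the endothelial sum given below were higher in the 2 dogs with high RRM2, whereas the other 5 T and NK cell markers were not, and their part in the result was not tested.

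The endothelial sum (6 of 13 markers, led by VWF) was 438, 986 and 909 CPM in luteolysis dogs 1, 2 and 3, and it was 1031 CPM in antigestagen dog 4, beside 493, 517, 738 and 596 CPM in antigestagen dogs 1, 2, 3 and 5. At mid-gestation it was 688, 279, 603, 536 and 714 CPM, with the lowest value in mid-gestation dog 2, where CCNA2 and HJURP were highest, and in luteal regression it was 307 and 314 CPM. The macrophage and monocyte sum (7 of 15, led by C1QB) was 433, 367, 561, 1064 and 897 CPM in antigestagen dogs 1 to 5, with the highest value in dog 4, where all 3 genes were lowest. It was 654, 340, 843, 479 and 498 CPM at mid-gestation, with the lowest value again in dog 2, 458, 439 and 422 CPM in luteolysis, and 180 and 225 CPM in luteal regression. The part of these cells in the results was not tested. The stromal sum (6 of 12, led by COL1A2) lay between 2137 CPM in luteolysis dog 3 and 15102 CPM in mid-gestation dog 1. PPBP, for red cells and platelets (1 of 7), lay between 0.342 and 12.5 CPM, and FSHR, the only follicle marker found of 5, between 744 and 1944 CPM after antigestagen, 617 and 1139 CPM at mid-gestation, 461 and 835 CPM in luteolysis and 609 and 615 CPM in luteal regression. Whether the levels of PRLR and FSHR bear on the 3 genes was not tested. None of these markers was at 0 in every dog, and no B cell, mast cell or epithelial marker had an identifier (0 of 9, 0 of 6 and 0 of 7).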

How the data were processed

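The authors prepared 1 library per dog, mapped it on CanFam3.1 by STAR (version 2.5.1b in the submitters' processing notes) and used featureCounts to assign reads to Ensembl genes. The deposited value is the unnormalised count of a gene in a dog. Of the 23630 genes, 4296 had no read, and all 3148 counts of 5 or more digits end in 0, that is, they were rounded. Total counts were between 8558743 and 26284315 per dog. RRM2 had 14 to 1287 reads per dog, CCNA2 23 to 219 and HJURP 4 to 169. Further luteal regression dogs of the study were not analysed here.

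Tools were edgeR 4.0.16, DESeq2 1.42.0 and limma 3.58.1 under R 4.3.3, and scipy 1.17.1 under Python 3.11.15. A mean count of 10 in any group admitted a gene to 1 fit of all 15 dogs (14922 genes, the 3 included), with TMM scaling. Each contrast was tested by edgeR's quasi-likelihood F-test, two-sided, on the genes that reach this mean in a group compared, with Benjamini-Hochberg adjustment. The SE is the absolute log2 ratio over the square root of F. Of these steps, only edgeR's test of luteal regression over mid-gestation was tried on simulated counts, with no outlying dog set. The correlations, the likeness and the lists were not tried in this way. Alternatives were DESeq2's size factors, no filter, DESeq2's Wald test, limma-voom with quality weights, the compared groups alone, a prior count of 0.5 for the correlations and leaving out each dog.

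The members and lists were chosen with earlier results of these data known. Named were the direct partners of the 3 genes, up to 3 genes of smallest p-value per list and contrast, and the 10 named genes most like the 3. Names came from 3261 identifiers in the study's supplementary tables, 2970 of them with a name. Older and newer symbols of 1 gene were counted once.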

Additional observations from a re-analysis of the deposited data

Results flagged for a closer look

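In groups of 5 dogs, single values that stood far from the others of their group were searched for in the 3 genes, the total counts and the marker sums, in 26 groups of values, where chance gives about 1 in 20. There were 4 such values. RRM2 in antigestagen dog 4 was 0.828 CPM, below 2.45 CPM in the next lowest dog. The total count of mid-gestation dog 5 was 26284315, above 20600378 in the next. The neutrophil marker sum of mid-gestation dog 4 was 30.0 CPM, above 8.73 CPM in the next. PPBP, the only marker found for red cells and platelets, was 12.5 CPM in antigestagen dog 5, above 3.11 CPM in the next. Luteolysis (n = 3) and luteal regression (n = 2) are too small for this search, so that luteolysis dog 1 was not examined by it.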

How the results depend on the processing

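The direction and side of the threshold were kept for 70 of 72 values of log2 ratios in the 2 tested contrasts. The log2 ratio of CCNA2 in luteal regression over mid-gestation ranged from -0.63 to 0.13 when leaving out each dog. In the other 4 contrasts all 153 values moved by less than the SD within groups, although ratios near 0 of CCNA2 and HJURP changed sign. A lone luteal regression dog is assumed to vary like the other groups. The correlation of RRM2 with CCNA2 ranged from 0.0468 to 0.829 and with HJURP from -0.00175 to 0.933 when leaving out each dog, and that of CCNA2 with HJURP from 0.769 to 0.902. Adjusted permutation p ranged from 0.00087 to 0.997 for the first pair and from 0.00138 to 0.997 for the second.

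Counts of cell cycle genes called differed by more than 1.5 times from the reported count in 26 of 75 values, with smaller shifts not counted. In luteal regression over luteolysis (4 called) limma-voom called 10 and the 2 groups alone 0, with 0 to 7 when leaving out a dog. In mid-gestation over luteolysis (6) limma-voom called 12 and the groups alone 2, with 0 to 9. In luteolysis over antigestagen (7) DESeq2's Wald test called 15, limma-voom 15 and the groups alone 0, with 0 to 10. In mid-gestation over antigestagen (0) the Wald test called 5 and limma-voom 1. In luteal regression over mid-gestation (0) the Wald test called 2, limma-voom 6 and the groups alone 2. In luteal regression over antigestagen (0) the Wald test called 8 and limma-voom 17. The cause of these shifts was not tested. Counts of all genes called shifted likewise, for luteolysis over antigestagen from 687 to 1486 by the Wald test, 2833 by limma-voom and 3 in the groups alone. For luteal regression over luteolysis they shifted from 754 to 1567, 3646 and 0, and for mid-gestation over luteolysis from 1197 to 1748, 3220 and 422. Luteal regression over mid-gestation had 770 calls in the groups alone, beside 0.

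No paired analysis was possible because no dog belongs to more than 1 group and replicate numbers only name dogs. With 2 luteal regression dogs and 3 luteolysis dogs of unlike levels, single dogs set group values. Reads per gene are few after antigestagen (4 to 76), and how far this limits the ratios there was not tested.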
